A study of Mus musculus with 8 samples.

Results

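The genes described are the core of hepatic gluconeogenesis: the enzymes Pcx, Pck1, Fbp1 and G6pc, the transporter Slc37a4, the coactivator Ppargc1a and the transcription factor Klf15. They were chosen by symbol from general knowledge of the pathway, with earlier results of these data known. Of the 7 symbols 7 were found, each at 1 locus, among the 23699 loci of the series. The samples were livers of 8-week-old male C57/BL6 mice in 4 groups of 2 mice, with 1 polyadenylated RNA library a mouse. LMKO mice carry a liver-specific knockout of Med23, a subunit of Mediator, the bridge between transcription factors and the polymerase that makes mRNA; the mice they were compared with are labelled control. Each genotype was sampled after 24 h without food (fasted) or after the same fast and 24 h of feeding (re-fed), which gives the groups re-fed LMKO, re-fed control, fasted LMKO and fasted control. The allele, the driver of the deletion and the genotype of the control mice are not given in the sources used here.

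Gluconeogenesis makes glucose from lactate, glycerol and amino acids, and in a fasting mammal the liver is its main site. Pyruvate carboxylase (Pcx) makes oxaloacetate in mitochondria, cytosolic phosphoenolpyruvate carboxykinase (Pck1) turns it into phosphoenolpyruvate, fructose bisphosphatase (Fbp1) bypasses the phosphofructokinase step, and the glucose phosphatase catalytic subunit (G6pc) with its substrate transporter (Slc37a4) releases free glucose in the endoplasmic reticulum. Glucagon, through cAMP and the factor CREB, and glucocorticoids raise transcription of Pck1, G6pc and Ppargc1a, whereas insulin lowers it. Ppargc1a encodes a coactivator that docks on nuclear receptors and FOXO1, and KLF15 is a zinc finger factor known in mice for its role in amino acid breakdown and gluconeogenesis.

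Values are FPKM as deposited, fragments mapped to a locus scaled by its transcript length and by the library's mapped fragments. The FPKM of a library summed to between 453652 and 597650, and between 10096 and 10403 loci a library reached an FPKM of 1. The absolute number of fragments is unknown; low values gave relative depths of 0.956 to 1.112 between libraries. Med23 was 1.61 and 1.74 FPKM in re-fed LMKO, against 2.86 and 2.33 FPKM in re-fed controls, and 2.35 and 2.18 FPKM in fasted LMKO, against 2.86 and 2.93 FPKM in fasted controls, so every LMKO library lay below its controls, without passing the test in either state (limma adjusted p = 0.315 re-fed and 0.438 fasted). The summed FPKM of 8 found hepatocyte markers was 15270 to 23720 in the 8 libraries, although Alb, one of them, was listed at 0 in all 8. Markers of kidney, another gluconeogenic organ, summed to at most 0.0201 FPKM. Re-fed control replicate 2 stood apart: its 5 adipose and muscle markers summed to 17.5 FPKM (Acta1 11.9, Ckm 3.39 and Myh1 2.02 FPKM), against at most 0.137 FPKM in the other libraries, and its ribosomal precursor locus Rn45s was at 3448 FPKM, against 185 to 1386 FPKM. Results that rest on the re-fed controls are also given without it. All fasted libraries share 1 prefix in the deposited names and all re-fed libraries another, so anything it marks cannot be told apart from feeding; both genotypes occur under each.

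Of the 7 promoters 4 are shown: those of Pck1, Ppargc1a and G6pc because these genes are textbook targets of cAMP and insulin, and that of Fbp1 because its genotype values had the opposite sign to Pck1. RefSeq (GRCm38.p6) gave 10 starts for the 7 genes. The 250 bases before the start are printed in the direction of transcription for Pck1 (chr2:173152823-173153072, plus strand), Ppargc1a (chr5:51567726-51567975, minus strand), G6pc (chr11:101367466-101367715, plus strand) and Fbp1 (chr13:62888283-62888532, minus strand), and capitals mark every match, on either strand, to the motifs searched.
Pck1: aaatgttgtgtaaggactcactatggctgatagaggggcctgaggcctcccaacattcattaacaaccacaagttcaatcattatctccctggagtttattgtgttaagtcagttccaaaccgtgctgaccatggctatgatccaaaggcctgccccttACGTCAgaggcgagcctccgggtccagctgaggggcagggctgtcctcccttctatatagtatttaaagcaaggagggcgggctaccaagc
Ppargc1a: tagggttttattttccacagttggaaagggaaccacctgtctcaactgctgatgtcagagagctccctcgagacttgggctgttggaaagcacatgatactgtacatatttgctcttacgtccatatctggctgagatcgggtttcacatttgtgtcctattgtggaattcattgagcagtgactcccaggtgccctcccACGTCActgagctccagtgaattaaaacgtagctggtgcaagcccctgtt
G6pc: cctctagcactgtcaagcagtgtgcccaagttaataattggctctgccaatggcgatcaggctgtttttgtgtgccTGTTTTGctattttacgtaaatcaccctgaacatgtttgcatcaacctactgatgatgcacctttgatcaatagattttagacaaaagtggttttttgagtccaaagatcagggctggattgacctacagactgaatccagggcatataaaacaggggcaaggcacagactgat
Fbp1: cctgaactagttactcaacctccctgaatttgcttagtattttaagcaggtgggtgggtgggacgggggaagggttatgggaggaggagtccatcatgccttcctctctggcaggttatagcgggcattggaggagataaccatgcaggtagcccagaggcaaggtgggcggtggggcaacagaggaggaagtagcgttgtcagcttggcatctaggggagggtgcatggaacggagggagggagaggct
The motifs were ACGTCA, part of the cAMP response element; TGACG, the shorter core of that element, which overlaps it; GTAAACA, a FOXO or FOXA core; and CAAAACA, an insulin response core. ACGTCA stood 91 to 86 bases before the Pck1 start and 50 to 45 bases before the Ppargc1a start, and on the other strand 61 to 56 bases before the first of the 3 Slc37a4 starts; of 32851 promoters 6.47% held it. The same Slc37a4 letters lay 214 to 209 bases before the second start, which also had TGACG 82 to 78 bases before it. CAAAACA was read on the other strand 174 to 168 bases before the G6pc start (5.56% of promoters). TGACG occurred outside ACGTCA before Klf15 too, on the other strand 6 to 2 bases before the start. In the direction of transcription it lay 78 to 74 bases before the start (17.8% of promoters). No letters of any of the 4 motifs were found before Fbp1 or either Pcx start, and GTAAACA (3.17% of promoters) was found before none of the 7 genes. A match is a match of letters in this window and says nothing about binding in these livers. Whether each RefSeq start, the single one of Ppargc1a included, is that of the transcript measured was not checked.

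The levels of the 7 genes spanned a wide range, with Fbp1 on top in both re-fed groups and Pck1 on top in both fasted groups. In the re-fed groups Fbp1 was the highest, at 977 ± 10.02 FPKM in LMKO and 659 ± 27.9 FPKM in controls (SD, n = 2), and Pck1 was next. G6pc, Pcx and Slc37a4 overlapped with their neighbours in both re-fed groups, so their order there is not resolved. In fasted LMKO Pck1 (839.5 ± 22.3 FPKM) and Fbp1 (788 ± 13.7 FPKM) were close, with the Pck1 libraries at 824 and 855 and the Fbp1 libraries at 798 and 778. In fasted controls Pck1 was far above the others at 2186 ± 82.2 FPKM, followed by Fbp1 (649 ± 47.9), G6pc (324 ± 32.5), Pcx (236 ± 1.43), Slc37a4 (169 ± 24.1), Klf15 (62.6 ± 2.19) and Ppargc1a (6.65 ± 0.0112). Both fasted groups had this same order, with no overlap between neighbours. FPKM is per length, which allows this comparison between genes, within a limit. A dependence on transcript length that moved with feeding, given further below, was not removed from these levels.

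**Figure D1:**
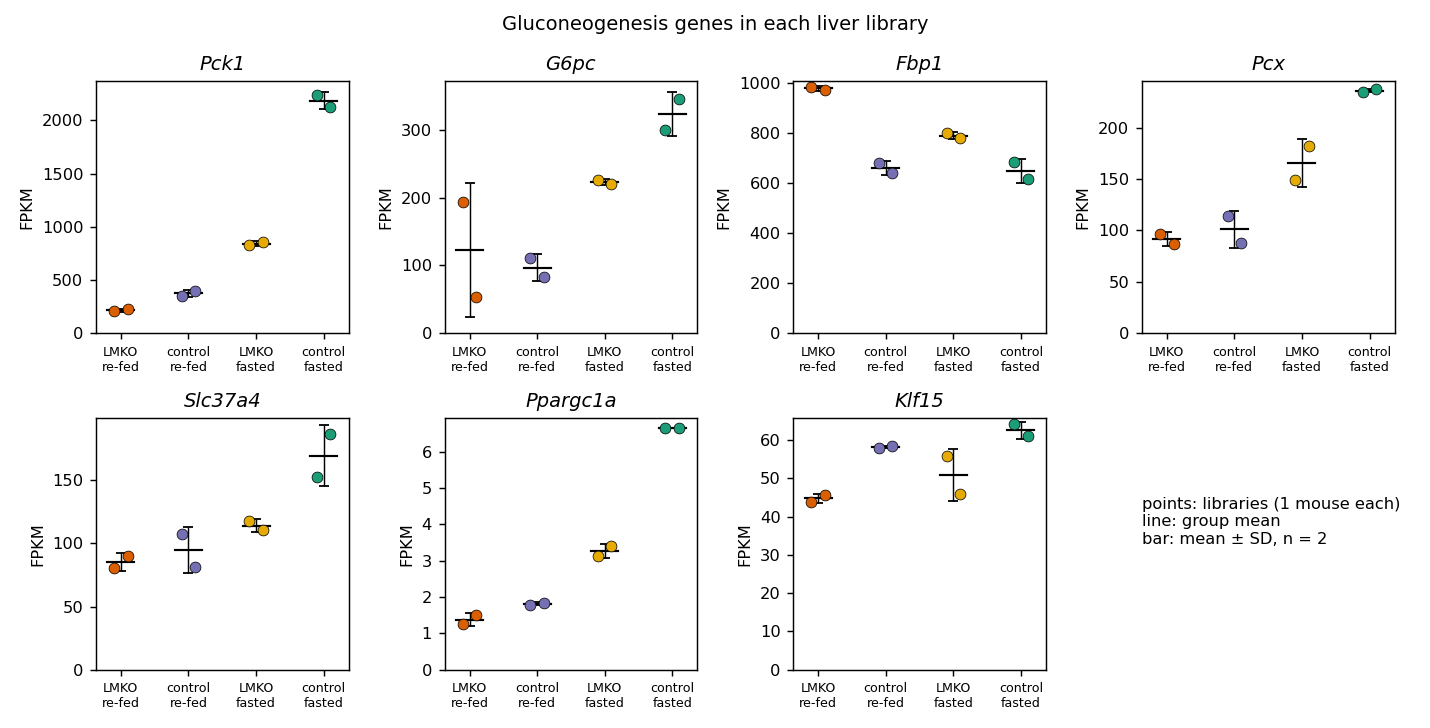
FPKM (linear axis from 0) of the 7 genes in each library, by group; points are libraries of 1 mouse each, the line is the group mean and the bar the SD (n = 2). Pck1 and Ppargc1a are lowest in re-fed LMKO and highest in fasted controls with no overlap between any groups, Fbp1 is highest in re-fed LMKO, and the 2 re-fed LMKO libraries differ widely for G6pc.

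Pck1 (chr2, 172978574 to 172984754, mm9), which takes carbon out of oxaloacetate at the start of the cytosolic pathway, was the only one of the 7 genes that passed the genotype test. Pck1 had 206 and 225 FPKM in re-fed LMKO, 352 and 396 FPKM in re-fed controls, 824 and 855 FPKM in fasted LMKO, and 2244 and 2128 FPKM in fasted controls. The 4 groups did not overlap, and each LMKO group lay below its control group. In the fasted state the mean in LMKO was 0.384 of the control mean, a log2 fold change of -1.38 on the log2(FPKM + 1) scale (SE 0.12, limma with Benjamini-Hochberg adjusted p = 0.0133). In the re-fed state the ratio of the means was 0.575 and the log2 fold change -0.79 (SE 0.12), which did not pass (limma adjusted p = 0.168, unadjusted p = 0.000418). Over both states the log2 fold change was -1.09 (SE 0.09, limma adjusted p = 0.00521), and this call held whichever of the 8 libraries was removed, with adjusted p between 0.0164 and 0.0464. Over both states 0.313% of all loci tested were called, 0.221% lower, and Pck1 was the 1 core gene among them. The call in the fasted state held in 6 of those 8 fits and lost without fasted LMKO replicate 1 or 2 (limma adjusted p = 0.107 and 0.0846), with the log2 fold change between -1.42 and -1.34 throughout. Fitting only the 4 fasted libraries also ended the call (limma adjusted p = 0.12), as did keeping all loci whatever their level (0.0558). The fasted value was the 82nd lowest of 10865 loci tested.

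Ppargc1a (chr5, 51845488 to 51945160), the coactivator, showed the same order of groups at a far lower level. Ppargc1a had 1.26 and 1.499 FPKM in re-fed LMKO, 1.79 and 1.84 FPKM in re-fed controls, 3.14 and 3.40 FPKM in fasted LMKO, and 6.66 and 6.64 FPKM in fasted controls. No group overlapped another. The mean in fasted LMKO was 0.492 of the fasted control mean, with a log2 fold change of -0.84 (SE 0.11) that missed the threshold (limma adjusted p = 0.0541). At such levels the added 1 FPKM shrinks the log2 value: with a pseudocount of 0.5 it was -0.92 (limma adjusted p = 0.0609). The fasted difference passed after median-ratio scaling (limma adjusted p = 0.0388), after quantile normalization (0.037) and without loci under 200 bases (0.0473), an alternative chosen after the data were seen. It failed in the other 18 of 21 alternatives, among them all 8 fits without a library (limma adjusted p = 0.0832 to 0.228), the fit of only the fasted libraries (0.186), no filter (0.155) and the replicate block (0.132). In the re-fed state the ratio of the means was 0.76 and the log2 fold change -0.24 (SE 0.11, limma adjusted p = 0.44).

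G6pc and Slc37a4 act together at the last step, where the transporter brings the phosphorylated sugar to the phosphatase. G6pc (chr11, 101229044 to 101239217) had 194 and 53.4 FPKM in re-fed LMKO, 111 and 82.7 FPKM in re-fed controls, 227 and 220 FPKM in fasted LMKO, and 301 and 347 FPKM in fasted controls. Both fasted LMKO libraries lay below both fasted controls, but the 2 re-fed LMKO libraries enclosed the re-fed controls. The spread in re-fed LMKO (124 ± 99.1 FPKM, SD, n = 2) enters the error of all comparisons of this gene, so that the fasted log2 fold change of -0.53 had an SE of 0.53 and a 95% confidence interval from -1.78 to 0.73 (limma adjusted p = 0.715). The re-fed value was 0.09 (SE 0.53, limma adjusted p = 0.965); without re-fed LMKO replicate 1 it was -0.83, and without replicate 2 it was 1.01, so no direction can be given. Slc37a4 (chr9, 44206259 to 44211048) had 80.3 and 90.1 FPKM in re-fed LMKO, 107 and 81.6 FPKM in re-fed controls, 118 and 110 FPKM in fasted LMKO, and 152 and 186 FPKM in fasted controls. As for G6pc, the fasted groups were apart and the re-fed groups overlapped. The log2 fold change of Slc37a4 was -0.56 in the fasted state (SE 0.17, limma adjusted p = 0.283, unadjusted p = 0.0154) and -0.14 in the re-fed state (SE 0.17, limma adjusted p = 0.782).

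Pcx (chr19, 4510472 to 4621752), which supplies oxaloacetate, had 96.1 and 87.0 FPKM in re-fed LMKO, 114 and 87.9 FPKM in re-fed controls, 149 and 182 FPKM in fasted LMKO, and 235 and 237 FPKM in fasted controls. The fasted groups were apart, with LMKO lower, while re-fed LMKO replicate 1 fell between the re-fed controls. The log2 fold change was -0.52 in the fasted state (SE 0.17, limma adjusted p = 0.297, unadjusted p = 0.0182) and -0.13 in the re-fed state (SE 0.17, limma adjusted p = 0.786). One other locus, Lrfn4, lies within the Pcx locus, at an FPKM of at most 1.37.

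Fbp1 (chr13, 62966113 to 62989596), the bisphosphatase, had the opposite sign. Fbp1 had 984 and 970 FPKM in re-fed LMKO, 679 and 639 FPKM in re-fed controls, 798 and 778 FPKM in fasted LMKO, and 683 and 615 FPKM in fasted controls. Every LMKO library lay above both controls of its feeding state. The log2 fold change was 0.57 in the re-fed state (SE 0.12, limma adjusted p = 0.246, unadjusted p = 0.00207), 0.28 in the fasted state (SE 0.12, limma adjusted p = 0.4) and 0.42 over both states (SE 0.08, limma adjusted p = 0.119), and none of these passed.

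Klf15 (chr6, 90412620 to 90425203), the zinc finger factor, had values of similar size in both states, none of which passed the genotype test. Klf15 had 43.9 and 45.6 FPKM in re-fed LMKO, 58.0 and 58.5 FPKM in re-fed controls, 55.7 and 46.0 FPKM in fasted LMKO, and 64.1 and 61.0 FPKM in fasted controls. The LMKO libraries lay below the controls in each state. The log2 fold change was -0.37 in the re-fed state (SE 0.13, limma adjusted p = 0.363), -0.30 in the fasted state (SE 0.13, limma adjusted p = 0.403) and -0.34 over both (SE 0.09, limma adjusted p = 0.183, unadjusted p = 0.0073).

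**Figure D2:**
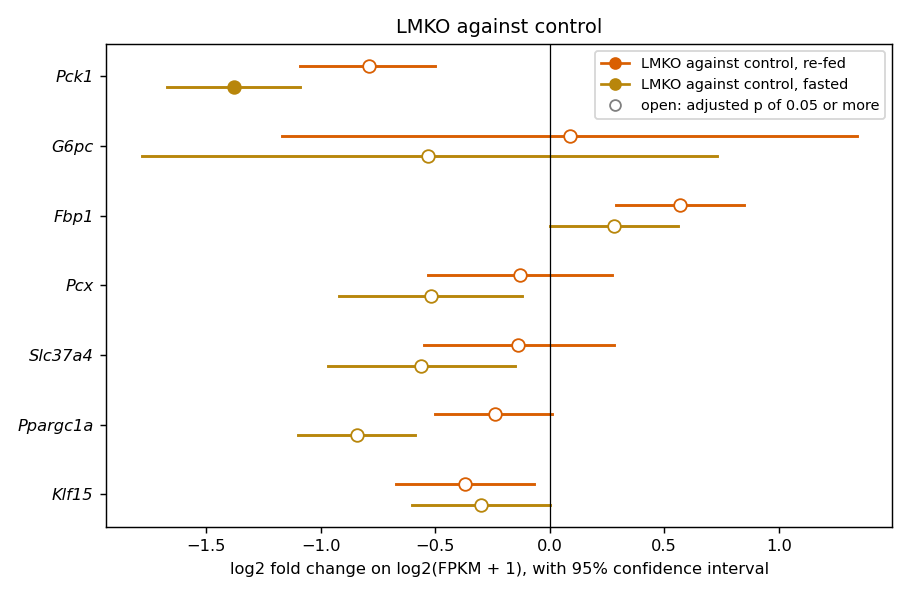
Log2 fold change of LMKO over control for each gene, on log2(FPKM + 1), in the re-fed and the fasted state, with 95% confidence intervals from the limma fit; filled points had an adjusted p under 0.05. The fasted Pck1 value of -1.38 is the filled one, Fbp1 lies to the right of 0 in both states, and G6pc has the widest intervals.

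Set against all loci, 1 of the 7 genes (Pck1, lower) was called in fasted LMKO, where 0.166% of the 10865 loci tested were called and 0.147% were called lower. In re-fed LMKO 0 of the 7 were called by limma, where 0.101% of all loci were called in either direction. There 3 of the 7 had an unadjusted p under 0.05, as had 1269 of the 10865 loci. Of the 7 genes 6 had both fasted LMKO libraries below both fasted controls, against 12.8% of all loci, and 1 (Fbp1) had both above, against 33.0% of all loci. In the re-fed state 3 (Pck1, Ppargc1a and Klf15) were below without overlap, against 19.4% of all loci, and Fbp1 was above, against 25.6%. Pck1, Ppargc1a and Klf15 were below in each of the 2 states, as were 3.38% of all loci, and Fbp1 was above in each, as were 10.1%. Without re-fed control replicate 2, 0 of the 7 were again called between the re-fed genotypes, with log2 fold changes of -0.71 for Pck1, 0.52 for Fbp1, -0.37 for Klf15, -0.33 for Slc37a4, -0.31 for Pcx, -0.23 for Ppargc1a and -0.13 for G6pc. The median log2 fold change of the 7 genes was -0.14 when re-fed and -0.53 when fasted, beside 0.01 and 0.08 over all loci tested. All 7 passed the filter on low values, with an FPKM above 1 in each library.

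**Figure D3:**
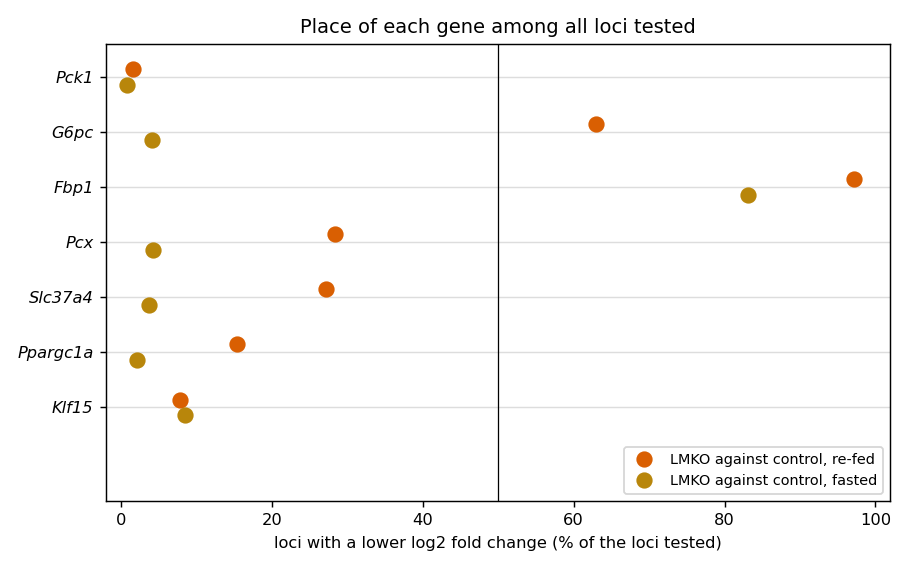
Share of the 10865 loci tested that had a lower log2 fold change of LMKO over control than the named gene (horizontal axis, percent), for the re-fed and the fasted state; the vertical line marks 50%. In the fasted state Pck1 had 0.746% of loci below it, Ppargc1a 2.04%, Slc37a4 3.69%, G6pc 4.06%, Pcx 4.16%, Klf15 8.39% and Fbp1 83.1%.

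Summed levels of some markers of cells and of liver zones lay apart between the fasted genotypes as well. Gluconeogenic enzymes are known to be enriched in periportal hepatocytes. The 7 periportal markers summed to between 1587 and 2147 FPKM in fasted LMKO and between 2241 and 2634 FPKM in fasted controls, with 6 of 7 at a lower value and 0 of 7 called by limma (1 at an unadjusted p under 0.05, as were 1342 of the 10865 loci tested). The 8 pericentral markers summed to between 8302 and 9272 FPKM in fasted LMKO and between 8615 and 9392 FPKM in fasted controls. The 6 endothelial markers summed to between 99.7 and 104 FPKM in fasted LMKO and between 68.4 and 78.7 FPKM in fasted controls, with 6 of 6 at a higher value. Between the fasted genotypes 7042 of the 10865 loci tested had a log2 fold change above 0, and 35.1% had one below 0. The 6 lymphocyte markers summed to between 1.93 and 2.26 FPKM in fasted LMKO and between 0.511 and 0.805 FPKM in fasted controls. Of these 6, 0 passed the filter on low values, so this low sum rests on untested loci. In the re-fed state the pericentral sum was 5936 to 7082 FPKM in LMKO, against 4634 to 4734 FPKM in controls, although 5 of its 8 markers had a log2 fold change below 0. The re-fed periportal sum was 1934 to 2183 FPKM in LMKO, against 2270 to 2550 FPKM in controls, and the 6 Kupffer cell markers were lower in 6 of 6, at 30.8 to 47.3 FPKM in LMKO and 57.0 to 73.7 FPKM in controls. Between the re-fed genotypes 48.5% of all loci tested had a log2 fold change below 0. In whole tissue, fewer cells of a type and less RNA per cell cannot be told apart, and the part of these markers in the differences above was not tested.

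More of the 7 genes passed the test between feeding states than between genotypes. In LMKO livers 3 of the 7 fell with re-feeding (Pck1, Pcx and Ppargc1a), where 16.3% of all loci were called lower, and the median of the 7 was -0.84 beside 0.06 over all loci. Pck1 fell to 215 ± 13.5 FPKM in re-fed LMKO, against 839.5 ± 22.3 FPKM in fasted LMKO (SD, n = 2), a log2 difference of -1.96 ± 0.12 (SE; limma adjusted p = 0.000734). Ppargc1a and Pcx each had a log2 fold change of -0.84 (SE 0.11 and 0.17, limma adjusted p = 0.00248 and 0.00965). Both called values moved with the processing, Ppargc1a to -0.54 with the length trend removed and Pcx to -1.30 after quantile normalization, and the Pcx call was lost when replicate 2 of fasted LMKO or of re-fed LMKO was removed (limma adjusted p = 0.0548 and 0.0596). G6pc was at -1.13 (SE 0.53, limma adjusted p = 0.132) with all libraries and at -2.05 without re-fed LMKO replicate 1 (limma adjusted p = 0.0105). Slc37a4 was at -0.42 (SE 0.17, limma adjusted p = 0.0985), Klf15 at -0.17 (SE 0.13, limma adjusted p = 0.303) and Fbp1 at 0.31 (SE 0.12, limma adjusted p = 0.0754). In 6 of the 7 both re-fed LMKO libraries lay below both fasted LMKO libraries, as in 33.8% of all loci, and Fbp1 lay above, as did 41.5%. The Fbp1 value changed sign after quantile normalization (-0.10) and with the length trend removed (-0.08). Slc37a4 passed after quantile normalization (limma adjusted p = 0.012), with the length trend removed (0.0364) and with only the 4 LMKO libraries in the fit (0.0469), and Klf15 passed after quantile normalization (0.0187) and with the length trend removed (0.0402).

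In controls 5 of the 7 fell with re-feeding (Pck1, G6pc, Pcx, Slc37a4 and Ppargc1a), where 10.5% of all loci tested were called lower, and the median of the 7 was -1.23 beside 0.13 over all loci. Over all loci 2473 were called higher and 1137 lower in controls, against 1805 and 1730 after median-ratio scaling and 1672 and 1694 after quantile normalization, so the balance of directions depends on the scaling. Pck1 fell most, to 374 ± 31.4 FPKM in re-fed controls, against 2186 ± 82.2 FPKM in fasted controls (SD, n = 2), a log2 difference of -2.54 ± 0.12 (SE; limma adjusted p = 0.000328). G6pc fell by 1.74 on the log2 scale (SE 0.53, limma adjusted p = 0.0442), a call lost in 6 of the 8 fits without a library (adjusted p between 0.00535 and 0.174 over the 8), under robust eBayes (limma adjusted p = 0.0599) and when low values were not filtered (0.093). Ppargc1a fell by 1.44 (SE 0.11, limma adjusted p = 0.00105), Pcx by 1.23 (SE 0.17, limma adjusted p = 0.00423) and Slc37a4 by 0.84 (SE 0.17, limma adjusted p = 0.0139). The Slc37a4 call was lost without fasted control replicate 2 or re-fed control replicate 2 (limma adjusted p = 0.0697 and 0.0613). Klf15 (-0.10, limma adjusted p = 0.56) and Fbp1 (0.02, limma adjusted p = 0.893) did not pass. Without re-fed control replicate 2 the log2 fold change was -2.63 for Pck1, -1.53 for G6pc, -1.46 for Ppargc1a, -1.05 for Pcx, -0.11 for Klf15 and 0.07 for Fbp1. In 6 of the 7 both re-fed control libraries lay below both fasted controls, as in 25.0% of all loci; Fbp1 overlapped. The Klf15 and Fbp1 values depend on the scaling: Klf15 fell after quantile normalization (-0.46, limma adjusted p = 0.0261), and Fbp1 was at -0.13 after median-ratio scaling and -0.33 after quantile normalization.

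A dependence on transcript length moved with feeding. The correlation, across 9869 loci, of a library's deviation from the locus mean with log2 transcript length lay between -0.352 and -0.32 for 3 of the re-fed libraries, at -0.013 for re-fed control replicate 1, and between 0.215 and 0.287 for all 4 fasted ones. The longest transcripts of the 7 genes run from 1479 bases (Fbp1) to 6464 bases (Ppargc1a). Summed markers of several cell types lay apart by feeding too. The endothelial sum was 46.5 to 64.1 FPKM in re-fed LMKO, against 99.7 to 104 FPKM in fasted LMKO, and 55.1 to 63.9 FPKM in re-fed controls, against 68.4 to 78.7 FPKM in fasted controls. The Kupffer cell sum was 30.8 to 47.3 FPKM in re-fed LMKO, against 80.9 to 106 FPKM in fasted LMKO. In controls the Kupffer cell sums overlapped, at 57.0 to 73.7 FPKM re-fed and 73.6 to 83.4 FPKM fasted. There 2 of the 6 Kupffer cell markers had a log2 fold change above 0 and 4 below. Over both genotypes the pericentral sum was 4634 to 7082 FPKM in re-fed livers, against 8302 to 9392 FPKM in fasted livers, the stellate sum 42.5 to 74.5 FPKM, against 78.3 to 87.0 FPKM, and the cholangiocyte sum 24.2 to 30.1 FPKM, against 8.12 to 12.0 FPKM. In controls the first 2 of these sums did not follow most of their markers. Of the 8 pericentral markers 5 had a log2 fold change above 0 and 3 below, and of the 6 stellate markers 4 above and 2 below. Most of the cholangiocyte sum was Spp1, with means of 22.9 FPKM in re-fed LMKO and 24.9 FPKM in re-fed controls. Its fasted means were 7.758 FPKM in LMKO and 7.745 FPKM in controls. Of the 5 cholangiocyte markers 3 were tested, and in controls 3 had a log2 fold change above 0, as had 6527 of the 10865 loci tested. The part of these markers in the feeding differences was not tested. With each library's length trend removed, an alternative chosen after the data were seen, 5 of the 7 genes fell with re-feeding in LMKO and 5 in controls. The share of all loci called under that alternative is not reported here, so these counts are not set against it.

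**Figure D4:**
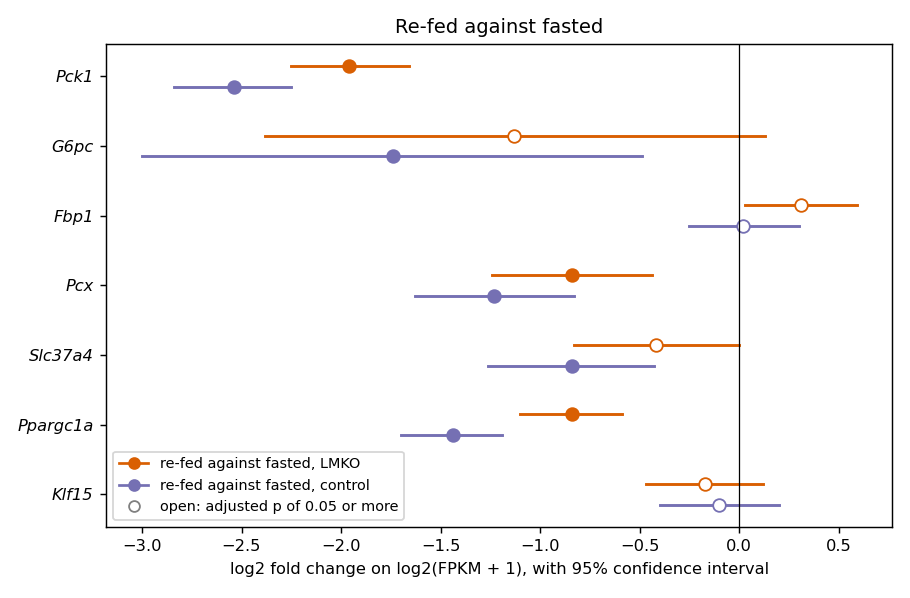
Log2 fold change of re-fed over fasted for each gene, on log2(FPKM + 1), in LMKO and in control livers, with 95% confidence intervals from the limma fit; filled points had an adjusted p under 0.05. Pck1, Pcx and Ppargc1a are filled and left of 0 in both genotypes, and 6 of the 7 LMKO points lie to the right of their control points.

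Whether re-feeding acted differently in the 2 genotypes was tested by the interaction, the LMKO response minus the control response. By limma 0 of the 7 genes passed, against 0.0368% of all loci. The smallest p among the 7 were those of Ppargc1a (0.60, 95% confidence interval 0.24 to 0.96, unadjusted p = 0.00578, limma adjusted p = 0.481) and Pck1 (0.59, 0.17 to 1.0, unadjusted p = 0.0128, limma adjusted p = 0.507). The Pck1 value was 0.24 after quantile normalization (limma adjusted p = 0.684). Without re-fed control replicate 2 Pck1 was at 0.67, Ppargc1a at 0.61, G6pc at 0.40, Fbp1 at 0.24, Slc37a4 at 0.23, Pcx at 0.20 and Klf15 at -0.07. With all libraries the value was also above 0 for G6pc (0.61, -1.16 to 2.39), Slc37a4 (0.42, -0.16 to 1.01), Pcx (0.39, -0.17 to 0.95) and Fbp1 (0.29, -0.11 to 0.68), and at -0.07 for Klf15 (-0.50 to 0.35). The responses of the genotypes are therefore not shown to differ for any of the 7.

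The 7 genes resembled each other to different degrees across the 8 libraries, which share their 4 groups. On log2(FPKM + 1), Pearson's r was 0.99 between Pck1 and Ppargc1a, 0.96 between Pck1 and Pcx and 0.92 between Pck1 and Slc37a4, but 0.78 between Pck1 and G6pc and -0.65 between Pck1 and Fbp1. Fbp1 and Klf15 ran most opposite (-0.87). Among 4463 other loci with a mean FPKM of at least 10, those most like Pck1 were Mat1a (r = 0.989), which makes the methyl donor S-adenosylmethionine, Pank1 (0.981), a pantothenate kinase of coenzyme A synthesis, and Sult1d1 (0.975), a sulfotransferase. Sult1d1 (0.989) and Pank1 (0.983) were also the closest to Ppargc1a, followed by E030018B13Rik (0.98). For Pcx they were E030018B13Rik (0.985), Ahcy (0.98), the adenosylhomocysteinase, and Angptl4 (0.975), a secreted inhibitor of lipoprotein lipase. For Slc37a4 they were Pafah1b1 (0.98), Dnaja3 (0.976) and St3gal5 (0.975), for G6pc D230025D16Rik (0.987), Gpihbp1 (0.962) and D4Bwg0951e (0.946), for Fbp1 Sdf4 (0.961), 9530008L14Rik (0.949) and Tusc2 (0.92), and for Klf15 Slc10a1 (0.884), Rnf149 (0.875) and Cps1 (0.869).

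Around the 7 genes, 80 others of the pathway were grouped as paralogs, reversible steps shared with glycolysis, substrate entry, opposing enzymes and regulators, and 75 of them passed the filter on low values. Between LMKO and control 0 of the 75 were called by limma in the re-fed state (7 at an unadjusted p under 0.05) and 0 in the fasted state (12 at an unadjusted p under 0.05). Of all 10865 loci tested, 1269 in the re-fed and 1342 in the fasted state had an unadjusted p under 0.05. The median fasted log2 fold change was 0.02 for 14 paralogs, -0.17 for 7 reversible steps, -0.02 for 21 genes of substrate entry, -0.03 for 6 opposing enzymes and 0.02 for 27 regulators. Among the smallest p were those of a pair of aminotransferases, enzymes that feed amino acid carbon into the pathway, and of a transcription factor. Tat, tyrosine aminotransferase, had 452 and 393 FPKM in fasted LMKO, against 1094 and 1966 FPKM in fasted controls (log2 fold change -1.80, limma adjusted p = 0.0851). Got1, the cytosolic aspartate aminotransferase, had 229 and 227 FPKM in fasted LMKO, against 445 and 524 FPKM in fasted controls (-1.08, limma adjusted p = 0.0926). Cebpb, a transcription factor induced by fasting signals, had 13.3 and 15.02 FPKM in fasted LMKO, against 31.0 and 42.9 FPKM in fasted controls (-1.31, limma adjusted p = 0.0979). None of these 3 passed, and the groups of each did not overlap. Tat was called without fasted control replicate 1.

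With re-feeding, 30 of the 75 were called in LMKO, 12 higher and 18 lower, and 27 in controls, 11 higher and 16 lower. Over all loci tested 23.2% were called higher and 16.3% lower in LMKO, and 22.8% higher and 10.5% lower in controls, so the higher calls among the 75 were at a smaller share than over all loci. Of 7 reversible steps 5 rose in LMKO and 4 in controls, for example Gapdh (1.30, limma adjusted p = 0.00246 in LMKO and 0.82, 0.0123 in controls). After quantile normalization 2 of them were called in LMKO and 0 in controls, and Gapdh was at 0.83 in LMKO and 0.49 in controls. Of 27 regulators 11 fell and 1 rose in LMKO, and 9 fell and 2 rose in controls, to be read against the same shares of all loci. Irs2, an insulin receptor substrate, fell by 2.03 in LMKO (limma adjusted p = 0.000842) and by 2.18 in controls (0.000823) on the log2 scale. Foxo1, a factor that insulin inactivates, had a log2 fold change of -0.71 in LMKO and -0.77 in controls (limma adjusted p = 0.0313 and 0.0277). The LMKO call was lost in 4 of the 8 fits without a library and with the length trend removed (-0.27, limma adjusted p = 0.186), and the control call in 3 of the 8 and with only the control libraries in the fit (0.0747); both were lost with no filter on low values (0.0624 in LMKO and 0.0582 in controls). Without re-fed control replicate 2 the Foxo1 value in controls was -0.45 (limma adjusted p = 0.0572). Among the paralogs, Ppargc1b, the sister coactivator, fell by 1.53 in LMKO (limma adjusted p = 0.0019) and by 0.71 in controls (0.021), a control call lost without fasted control replicate 2 or either re-fed control replicate (0.102, 0.0572 and 0.0894). With a pseudocount of 0.1 the falls of these low genes were larger, -3.13 for Irs2 in LMKO, and for Ppargc1b -2.53 in LMKO and -1.07 in controls. Klf9, a Krüppel-like factor as Klf15 is, fell by 1.64 in LMKO (limma adjusted p = 0.00235) and by 1.78 in controls (0.00252). Both next genes were chosen after their values were seen, as the closest relatives of core enzymes. Pck2, the mitochondrial counterpart of Pck1, stayed near 1 FPKM in all groups (means 0.775 to 1.33 FPKM), and G6pc3, the widely expressed relative of G6pc, had means of 3.17 to 4.26 FPKM.

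**Figure D5:**
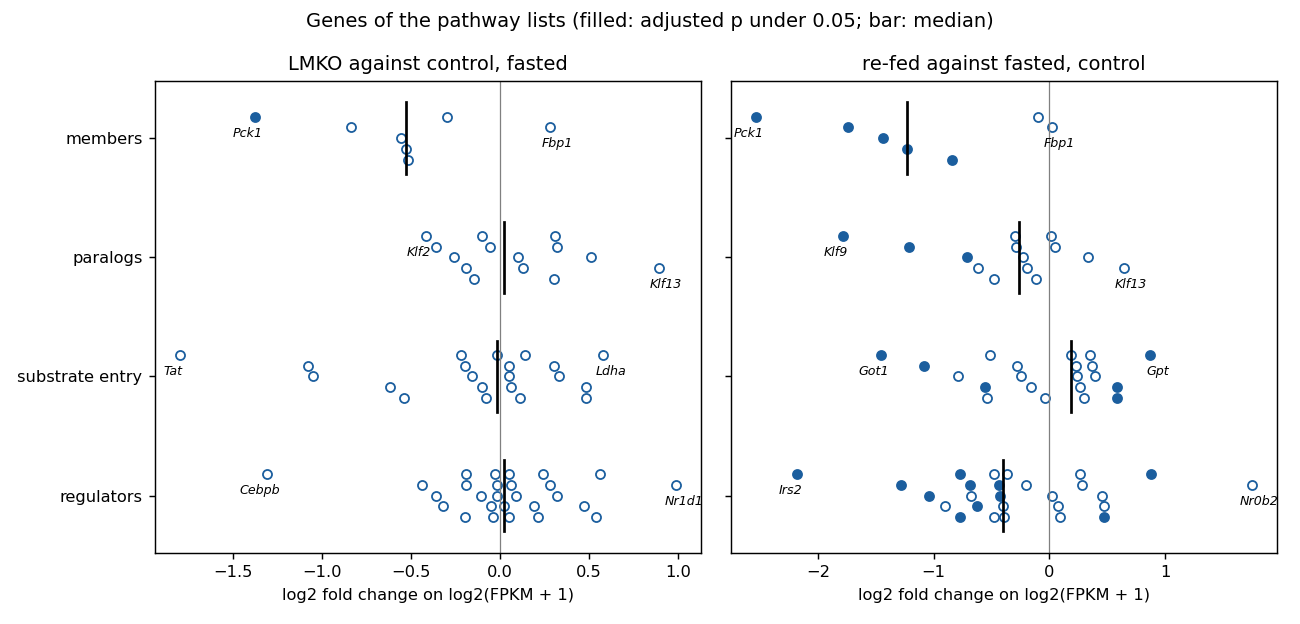
Log2 fold change on log2(FPKM + 1) of each gene in the 7 core genes (members) and 3 of the pathway lists, for LMKO against control when fasted (left) and re-fed against fasted in controls (right); filled points had an adjusted p under 0.05, bars are list medians, and the gene at each end of a list is named. On the left Pck1 alone is filled, with Tat and Cebpb at the low ends of their lists; on the right 5 of the 7 core genes are filled and left of 0.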

How the data were processed

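Liver polyadenylated RNA of 8 mice, 2 in each of 4 groups taken from the labels, was measured by RNA-seq, 1 library a mouse. The authors deposited FPKM for each locus and library; per the submitters' processing notes TopHat 1.4.1, Cufflinks 2.0.2 and Cuffdiff 2.0.2 were used with build mm9. Fragment counts are not given, so no count model was used, and precision rests on the 2 mice a group. The deposited starts count from 0 and are printed 1 higher. Loci that reached 1 FPKM in 2 or more libraries (10865) were kept, and their log2(FPKM + 1) was fitted with 4 group means in limma 3.58.1 (R 4.3.3, eBayes with trend). P-values were adjusted by Benjamini-Hochberg over all loci tested, and a locus was called at an adjusted p under 0.05. The fit was tested on simulated data. The 7 genes and all lists were chosen with earlier results of these data known. Beside the 7 genes and Med23, the text names called genes of the 5 pathway lists, otherwise up to 4 with the smallest p in a list and comparison, and the 3 most alike loci of each gene. Of the hepatocyte markers 8 of 9 were found. Promoter sequences are RefSeq's, on GRCm38.p6, matched by symbol, and their coordinates are not those of mm9. Alternatives changed the pseudocount, filter, scaling, variance model, libraries fitted and replicate block. Some genes of the pathway lists are counted with their lists but not reported here by name.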

Additional observations from a re-analysis of the deposited data

How the results depend on the processing

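With 2 mice a group, a call can rest on 1 library, and the fragment counts behind the FPKM are unknown. For the 7 core genes, 825 of 868 recomputed values kept their direction and side of the threshold, 16 lost a call, 11 gained one and 16 changed sign. Leaving out each library in turn, with the lone mouse assumed to vary like the other groups, the core genes called were 0 to 1 between fasted genotypes, 1 to 1 over both states, 3 to 5 with re-feeding in controls and 2 to 4 in LMKO. The pathway genes called were 0 to 1 between fasted genotypes, 0 to 1 over both states (Tat, without fasted control replicate 1), 11 to 26 with re-feeding in controls (27 with all libraries) and 19 to 33 in LMKO (30 with all). Between fasted genotypes 2 core genes, Pck1 and Ppargc1a, were called after median-ratio scaling, after quantile normalization and without loci under 200 bases, and 0 with no filter or only the compared libraries; over both states 2 were called after median-ratio scaling. With re-feeding in LMKO 5 were called after quantile normalization and 5 with the length trend removed. Over all loci tested, 2 were called higher and 17 lower between fasted genotypes after either scaling. Over both states 8 were called higher and 29 lower after median-ratio scaling. With re-feeding in LMKO 2012 were called higher and 2014 lower after quantile normalization. For the other alternatives the counts over all loci are not reported here. With only the compared libraries, 11 pathway genes were called with re-feeding in controls. The cause of these changes was not tested. The length and short-locus alternatives were chosen after the data were seen.

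The following values changed sign; ranges are over the 8 fits without a library. With re-feeding Fbp1 was at -0.10 (quantile) and -0.08 (length) in LMKO, and at -0.33 (quantile), -0.25 (length) and -0.13 (median-ratio) in controls, with a range of -0.05 to 0.10 there. Between re-fed genotypes G6pc was at -0.01 (quantile) with a range of -0.83 to 1.01; its range was -0.68 to 0.24 over both states and -0.30 to 1.53 in the interaction. The Klf15 interaction was 0.01 (median-ratio) with a range of -0.21 to 0.06, and that of Med23 was 0.00 (length). Between re-fed genotypes the range was -0.31 to 0.06 for Pcx, -0.33 to 0.06 for Slc37a4 and -0.65 to 0.54 for Pfkfb3, which was at 0.01 (length); between fasted genotypes that of Pfkfb3 was -1.31 to 0.19. Got2 with re-feeding in LMKO was called higher at 0.45 (limma adjusted p = 0.0416) and was at -0.12 (quantile, 0.517).

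The labels name no litter or day shared by same-numbered mice. Differences between replicates 1 and 2 correlated between -0.084 and -0.008 from group to group across loci. That cannot settle whether same-numbered mice are paired. With the replicate number as a block, the core genes called stayed at 1, 0 and 1 between genotypes (fasted, re-fed, both), 3 with re-feeding in LMKO, 5 in controls and 0 in the interaction, and the fasted Pck1 difference had a limma adjusted p of 0.0499.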
